A study of Drosophila melanogaster with 4 samples.

Results

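The regions described here are stretches of intermediate width, 2 to 10 kb, that carried enrichment of histone H3 with a single methyl group on lysine 4 (H3K4me1) on the autosomal arms 2L, 2R, 3L and 3R of Drosophila melanogaster. They were chosen by width alone, as all enriched regions from 2000 bp to under 10 kb on these arms in the list that the authors deposited for both ChIP replicates combined. This rule found 4179 regions, or 50.8% of the 8219 enriched regions of the whole combined list. Width and list come from the measurement itself, so the widths, the scores and the overlap with the replicate lists are given as descriptions without a test.

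H3K4me1 is laid down by methyltransferases of the Trithorax-related (Trr) and MLL3/MLL4 kind and is known as a mark of enhancers, both active and primed. It also flanks active promoters, where the nucleosomes next to the start site carry tri-methylation instead. Nucleosomes on both sides of a bound enhancer usually carry the mark, so a marked stretch is commonly wider than the regulatory element inside it. In fly embryos many enhancers lie in introns and in the sequence between genes.

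The data are chromatin immunoprecipitation followed by sequencing (ChIP-seq) from whole wild-type Oregon-R embryos, a standard laboratory strain, taken at 14 to 16 h, when organs are differentiating. The antibody was ab8895, named new lot 2 in the labels, and chromatin was fixed with 1.8% formaldehyde. Both ChIP libraries and both input libraries (n = 2 each) were of the same strain, stage and genotype, and the labels name no further treatment. The labels do not say whether replicates came from separate embryo collections, so their spread may be technical. Whole embryos mix all tissues, and a weakly marked region cannot be told apart from one marked in few cells. Input values were not analysed here, and the sources used here give no read depth. All coordinates are FlyBase release 5, counted from 1. The gene table at hand was on release 6, so the position of the regions against gene starts, introns and intergenic sequence was not analysed here, and no gene is named.

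Regions of 2 to 10 kb were the commonest kind on the autosomes. They made up 64.7% of the 6460 autosomal regions (exact Clopper-Pearson 95% interval 63.5 to 65.9, counting error only). The other autosomal regions were 1483 narrow ones under 2000 bp and 798 broad ones of 10000 bp or more. The mid-width regions held 18.5 Mb, which is 55.0% of the 33.6 Mb of enriched autosomal sequence and 19.1% of the 4 arms. Broad regions covered 13.4% of the arms and narrow ones 2.32%. The same rule applied to each replicate list gave 4348 regions in replicate 1 and 4149 in replicate 2, covering 18.7% ± 0.803 of the arms (SD, n = 2). Their share of all autosomal regions was 71.5% ± 0.828 in the replicate lists. It was lower in the combined list, which held more regions on both sides of the limits. Narrow regions numbered 1483 there, 1076 in replicate 1 and 1157 in replicate 2, and broad ones 798, 604 and 541. The combined list also reached down to shorter regions, with a smallest autosomal width of 1001 bp, against 1302 and 1301 bp in the replicate lists.

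Within the limits, most members lay towards the lower end. Their median width was 3890 bp, with quartiles of 2661 and 5683 bp. Widths from 2 to under 3 kb held 1378 members, or 33.0%, and widths from 9 to under 10 kb held 158, or 3.78%. Both replicate lists had a pile-up just above the lower limit. Replicate 1 had 406 regions of 1750 to 1999 bp, 601 of 2000 to 2249 bp and 433 of 2250 to 2499 bp. In replicate 2 these counts were 405, 586 and 409. The combined list showed a flatter top, with 418, 442 and 402 regions. The lower limit therefore cut through the commonest widths, while the upper limit lay in a thin tail.

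**Figure D1:**
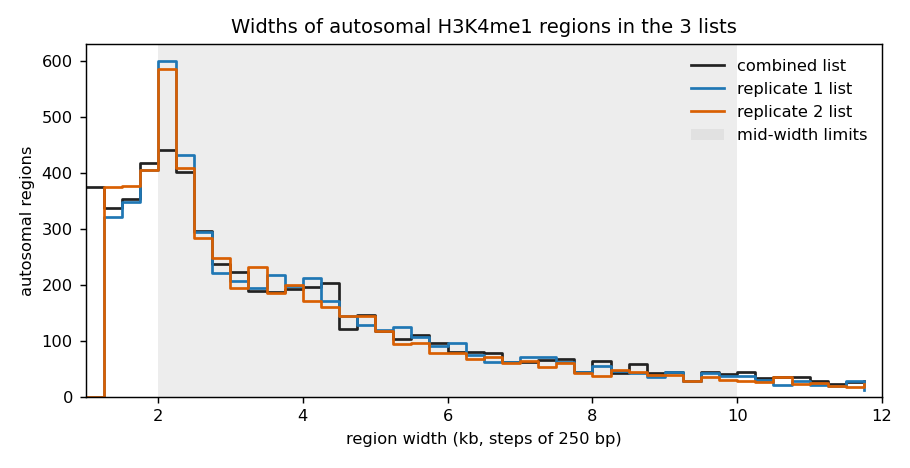
Number of autosomal regions (vertical axis) by width in kb, in steps of 250 bp, for the combined list and each replicate list, with the mid-width limits shaded. Both replicate lists peak at 2000 to 2249 bp, with 601 and 586 regions, and the combined list has 442 there.

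In the combined list, numbers changed little from one side of a limit to the other, whereas the replicate lists stepped up in number at 2000 bp. From 1900 to 1999 bp replicate 1 had 182 regions and replicate 2 had 176, and from 2000 to 2099 bp they had 270 and 261. The combined list had 189 autosomal regions in the 100 bp below 2000 bp and 177 in the 100 bp from 2000 bp up, with median scores of 0.35 and 0.40. The lower limit lay within a rise of the median score, from 0.31 at 1800 to 1899 bp to 0.59 at 2300 to 2399 bp. The score is a log2 value of enrichment given by the authors, and each list has its own additive constant. Near the upper limit, 85 regions in the last 500 bp inside it had a median score of 1.03, and 78 regions in the next 500 bp had 1.02. The narrowest members measured 2000 bp, at 1450957 to 1452956 of 2L (score 0.37) and at 2461722 to 2463721 of 3L (score 0.39). Just outside stood 6 regions that were 1 bp shorter, of which the first by position was on 2L at 8448160 to 8450158 (score 0.37). The widest member lay on 3R at 12449938 to 12459932, with 9995 bp and a score of 1.48. The narrowest region above the limit had 10003 bp, on 3L at 16656802 to 16666804, and a score of 0.50.

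Mid-width regions covered a wide range of enrichment. Combined scores ran from 0.19 to 1.87, with a median of 0.71 and quartiles of 0.51 and 0.96. This lay between the medians of narrow regions (0.33) and broad regions (1.13). Inside the class the score also rose with width. In steps of 1 kb, the median was 0.50 from 2 to 3 kb, 0.68 from 3 to 4 kb, 0.81 from 4 to 5 kb, 0.90 from 5 to 6 kb and 1.02 from 9 to 10 kb. In the replicate lists the lowest step had 0.67 ± 0.042 and the highest 1.15 ± 0.011 (SD, n = 2), and within each library the highest step stood above the lowest, by 0.53 in replicate 1 and 0.45 in replicate 2. Spearman's rho of width against score across members came to 0.61, against 0.65 and 0.63 for the same rule in replicates 1 and 2. Width and score come from the same reads and calls, and regions are not independent.

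The rise was not even. It was steepest at the narrow end, from a median of 0.40 at 2000 to 2099 bp to 0.59 at 2300 to 2399 bp in the combined list. From there to 2999 bp the medians stayed between 0.54 and 0.60. Replicate 1 rose from 0.52 to 0.74 and replicate 2 from 0.59 to 0.80 between 2000 to 2099 bp and 2400 to 2499 bp, and at 2500 to 2599 bp both were lower again, at 0.71 and 0.75. Widths still left much of the score open. From 9 to 10 kb the quartiles were 0.80 and 1.19, and the widest 5 members ranged from 0.76 to 1.61.

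The strongest members were several kb wide and stood in both replicates. The highest score, 1.87, belonged to a region of 6681 bp on 3R at 8523264 to 8529944, with 1.84 in replicate 1 and 1.93 in replicate 2. A region of 7130 bp on 3R at 5523926 to 5531055 followed with 1.79, and its replicate scores were 1.93 and 1.66. On 2L, the 9719 bp at 217521 to 227239 scored 1.74, with 1.87 and 1.64 in the replicates. The fourth, on 3R at 17436335 to 17444917, scored 1.73 and had broad regions as both neighbours, 784 bp to its left and 1895 bp to its right. These 4 were covered to at least 92.8% by a single region of each replicate.

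The other 6 of the top 10 scored 1.63 to 1.70. They lay on 2R at 11002211 to 11007910 and 19862184 to 19871564, on 3R at 7581407 to 7590326 and 6175302 to 6185148, on 2L at 3474249 to 3480875 and on 3L at 3034894 to 3041312. Their replicate scores lay between 1.62 and 1.79, and a single region of each replicate covered at least 93.4% of every one. None of the top 10 was narrower than 5700 bp. The last of them, on 3L, had no other enriched region for 52435 bp to its left and one only 163 bp to its right.

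**Figure D2:**
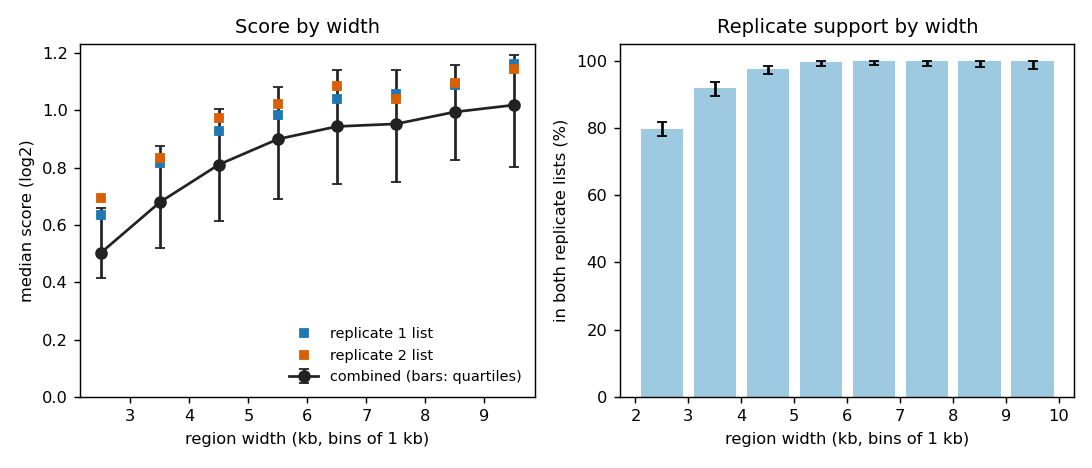
Left, median score (log2) by width in bins of 1 kb, for the combined list with quartiles as bars and for each replicate list under the same rule. Right, share of combined members that overlapped both replicate lists, with exact 95% intervals as bars, rising from 79.8% at 2 to 3 kb to 100% from 6 kb up.

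Most members were listed in each library on its own. A region of both replicates overlapped 3817 of the 4179 by at least 1 bp (91.3%, interval 90.4 to 92.2), and these held 94.8% of the members' length. Over all autosomal regions of the combined list this share was 73.8%. Among narrow regions it was 10.1% (150 of 1483) and among broad ones 100% (798 of 798). Of the narrow regions, 445 were shorter than 1302 bp, the width from which both replicate lists hold regions, and none of these overlapped both. Without them, a choice made after the data were seen, the share was 14.5% of 1038 narrow regions and 79.2% of 6015 autosomal regions. The combined list was made from the same libraries, and wide regions overlap more easily, so this is not independent support. A further 253 members overlapped replicate 1 alone, 56 overlapped replicate 2 alone and 53 overlapped neither.

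Replicate support followed width and score. It was 79.8% from 2 to 3 kb, 91.8% from 3 to 4 kb, 97.5% from 4 to 5 kb and 99.5% from 5 to 6 kb. All 909 members of 6 kb or more were found in both lists. By score, the members below the lower quartile had 66.2% (interval 63.3 to 69.1), and those between it and the median had 99.3% (98.6 to 99.7). The step was narrow. Support was 25.8% for the 93 members scoring under 0.35, 44.6% from 0.35, 70.0% from 0.4, 87.9% from 0.45 and 97.2% from 0.5 to under 0.55. From 0.6 up it was 99.9%, or 2660 of 2663. Within a narrow range of width, support also went with score. Among members of 2 to 3 kb, those up to the median score had 60.7% in both lists and those above it 99.0%, but their median widths differed, at 2255 and 2502 bp. Parted at the median score of each step of 100 bp instead, the lower members had 63.0% (interval 59.3 to 66.6) and the upper ones 96.8% (95.2 to 98.0), with median widths of 2392 and 2397 bp. The lower members had the smaller share in 10 of 10 steps. Score and listing come from the same reads.

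Only 3 members scoring 0.6 or more lacked one replicate. They were picked out after their values were seen. The strongest, at 21552380 to 21554540 of 2L, had a combined score of 1.32. It scored 1.96 in replicate 2, and the nearest replicate 1 region was 15854 bp away. The others were on 3L, at 23664744 to 23667439 with 0.93 and at 23688270 to 23690582 with 0.63. They scored 1.20 and 0.73 in replicate 1, and the nearest replicate 2 regions were 41340 and 18197 bp away. All 3 were 2161 to 2696 bp wide and lay within 2 Mb of the centromere end of their arm, at 1.46, 0.876 and 0.853 Mb from it. Of all 4179 members, 257 lay in these end stretches of the 4 arms. Both replicates supported 92.2% of those 257 and 91.3% of the other members. Whether the location of the 3 differs from that of members at large was not tested.

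The members found in neither list were weak and short, with medians of 0.37 for the score and 2342 bp for the width. The strongest of them, at 7736128 to 7738847 of 2L, had 2720 bp and scored 0.51. The next were on 3L at 10810993 to 10813334, at 16431238 to 16433591 and at 3788125 to 3791468, and on 3R at 4697482 to 4700011. Their scores were all 0.44. Members found in a single replicate were much alike in score. Those in replicate 1 alone had a median of 0.40 and those in replicate 2 alone 0.39, against 0.75 for members found in both.

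Most members corresponded to one region in each library. For 3297 members (78.9%) exactly 1 region of each replicate overlapped, and neither of these touched another combined region. Edges were placed much alike. Starts in replicates 1 and 2 lay a median of 119 bp apart and ends also 119 bp. The upper quartile of the distance between starts was 275 bp. The widths in the replicates were within 20% of each other in 2619 of them (79.4%). The combined region was wider than both partners in 2936 (89.1%). The combined regions had a median width of 3815 bp, and their partners had 3467 bp (replicate 1) and 3155 bp (replicate 2). Both partners were themselves 2 to 10 kb wide in 2732 (82.9%). In the other 565 at least one partner was under 2000 bp, and in 173 both were.

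Scores of these 3297 regions were close between libraries. By Spearman's rho, replicate scores correlated at 0.89 and replicate widths at 0.91, across regions of a single pair of libraries. The difference between the replicate scores had an SD of 0.12. This puts the SD of one replicate's score at 0.088, while the replicate means varied between regions with an SD of 0.27. Members missing from a replicate list have no such pair of scores and do not enter these SDs or the values of rho. The median difference was 0.0033, but each list has its own constant, so this does not rank the libraries. The spread was larger for short regions. The SD of a single score was 0.094 from 2 to 3 kb and 0.073 from 9 to 10 kb, and rho was 0.66 and 0.92. The quartiles of the combined score also lay closer together among short regions, at 0.42 and 0.66 from 2 to 3 kb.

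**Figure D3:**
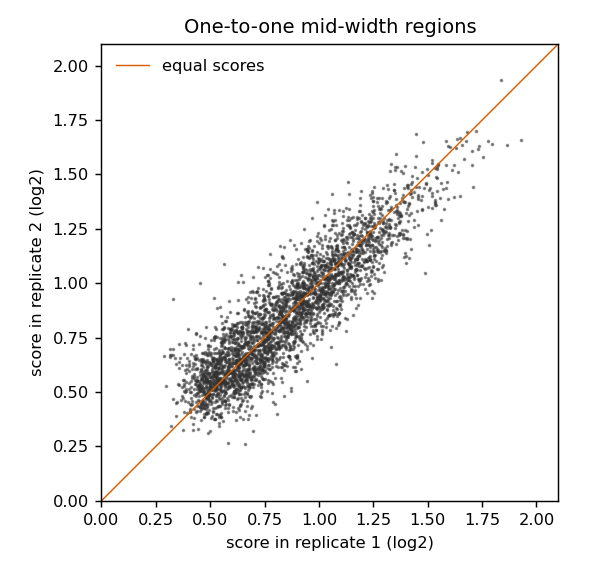
Score (log2) in replicate 1 against replicate 2 for the 3297 members with a single partner in each list, with the line of equal scores. The points follow the line with an SD of the difference of 0.12, and few points lie far from it.

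A handful of regions differed clearly between the libraries. The largest gap was on 3L at 2235349 to 2237477, with scores of 0.33 in replicate 1 and 0.93 in replicate 2. Next came 3L at 7503706 to 7505922 with 0.45 and 1.00, and 2L at 13180869 to 13183294 with 0.57 and 1.09. These 3 were 2129 to 2426 bp wide and were higher in replicate 2. The next 2 were higher in replicate 1. On 3R, the region at 13370419 to 13374580 scored 1.08 and 0.63, and the one at 8298877 to 8304949 scored 1.49 and 1.05. In the latter the replicate regions covered only 41.4% and 36.1% of its 6073 bp.

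Some members joined several stretches of a single library. In 285 members (6.82%) replicate 1 had 2 or more regions, and in 350 (8.38%) replicate 2 had. The gaps that the combined list bridged were short, with medians of 194 bp (replicate 1) and 256 bp (replicate 2) and largest values of 2248 and 2501 bp. Wide members were split more often. Replicate 1 split 0.363% of the members of 2 to 3 kb and 23.4% of those of 9 to 10 kb, and replicate 2 split 0.145% and 31.6%. In the other direction, 489 of the 4348 mid-width regions of replicate 1 (11.2%) and 660 of the 4149 of replicate 2 (15.9%) lay mostly in a combined region of 10 kb or more. Thus the class held nearly the same number of regions in all 3 lists, while regions moved in and out of it between lists.

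The gap from a mid-width region to the nearest enriched region of any width had a median of 1220 bp, with quartiles of 427 and 3006 bp. This value depends on what counts as a region. The median was 1968 bp once regions at most 500 bp apart were joined, 2472 bp in the top 50% of the list by score and 2125 bp when only mid-width neighbours were counted. Under each of these the gap stayed shorter than the median width of the members. A neighbour stood less than 1 kb away for 1846 members (44.2%), and in the replicate lists this held for 41.8% ± 0.602 (SD, n = 2). Narrow regions had a median gap of 1662 bp and broad ones 1001 bp, so the spacing of mid-width regions lay between them. A wider region leaves less room for gaps, and no test was made of these differences. Mid-width regions on X, 953 in number, had a median gap of 839 bp and a median score of 0.78.

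**Figure D4:**
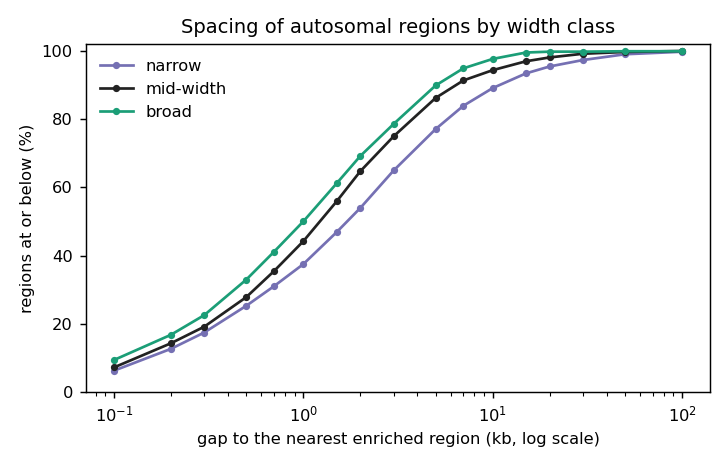
Share of autosomal regions (vertical axis, %) whose nearest enriched region lies at or below a given gap in kb (log scale), for narrow, mid-width and broad regions of the combined list. At 1 kb the curves stand at 37.5%, 44.2% and 50.0%.

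Neighbours were of every width, in about the shares the list itself had. Of 8353 neighbours to the left or right of a member, 66.3% were mid-width, 21.1% narrow and 12.6% broad. The autosomal list held 64.7%, 23.0% and 12.4% of these. Regions of any width less than 1 kb apart formed 1194 stretches, whether or not a mid-width region was among them. These stretches held 1846 members. Of the 1194 stretches, 479 held mid-width regions only and 278 held a broad region beside a mid-width one. The stretch richest in members lay on 2L at 8820265 to 8855366. It strung 7 mid-width regions over 35102 bp, with scores from 0.41 to 1.45. Replicate 1 had 7 regions over it, covering 84.8%, and replicate 2 had 6, covering 74.2%. On 2R, 6 mid-width regions and 1 narrow one stood at 7162117 to 7185674. On 2L, 5 mid-width regions stood at 10218317 to 10241871. These stretches were picked out after their values were seen.

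Adjacent members were only loosely alike in strength. Over 2769 pairs of members that followed each other directly, rho between their scores was 0.22, and the median difference was 0.23. For 708 pairs less than 1 kb apart rho was 0.26, and for 530 pairs at least 10 kb apart it was 0.090.

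Isolated members were fewer and somewhat weaker. Only 237 members (5.67%) had no other region within 10 kb. Their median score was 0.63, against 0.72 for members with a neighbour under 1 kb away, and their median widths were 3257 and 3985 bp. In the replicate lists the same classes had medians of 0.79 ± 0.020 and 0.86 ± 0.030 (SD, n = 2), and the isolated ones were lower by 0.064 in replicate 1 and 0.078 in replicate 2. The most isolated members were all on 2L. One of 2093 bp at 17962971 to 17965063 had no enriched region for 180300 bp to its left and 169662 bp to its right. Its score was 0.47, with 0.70 in replicate 1 and 0.32 in replicate 2. Another at 12823287 to 12825331 was also short and weak, with 2045 bp and a score of 0.40. The third, at 15906480 to 15914991, was 8512 bp wide with a score of 1.01, although its nearest neighbours were 134716 and 251425 bp away.

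The arms differed little. In the replicate lists 2R had 46.8 ± 1.34 members per Mb, 3L had 44.0 ± 1.21, 3R had 43.8 ± 1.19 and 2L had 41.5 ± 2.15 (SD, n = 2). The arm 2R stood above 2L in both libraries and by more than their spread. Within a library, 2R stood above 2L by 4.74 per Mb in replicate 1 and 5.89 in replicate 2, and 3L above 3R by only 0.172 and 0.145. In the combined list the order of 3L and 2R was almost level, at 44.4 and 44.5 per Mb, with 42.4 on 2L and 42.1 on 3R. With 2 libraries an exact paired test cannot reach p below 0.05, so none is given. Members covered 20.1% ± 0.837 of 2R and 17.4% ± 1.05 of 2L. For 2R the median score was 0.86 ± 0.016, for 3R 0.86 ± 0.031, for 2L 0.84 ± 0.029 and for 3L 0.82 ± 0.019, where each SD includes the difference between the constants of the lists. Within a library these constants cancel. There 3R stood above 2L by 0.018 in replicate 1 and 0.020 in replicate 2, and 2L above 3L by 0.011 and 0.025. The order of 2R and 3R was not the same in both, with 2R higher by 0.016 in replicate 1 and a difference of -0.0046 in replicate 2. Replicate support ran from 89.6% on 2L to 93.4% on 2R.

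Density along the arms varied far more than between libraries. Over 97 windows of 1 Mb it ran from 1.84 to 72.0 per Mb in the combined list, with a median of 42.0 and quartiles of 36.0 and 50.0. The SD between windows was 13.1 per Mb, and the median SD between replicates was 2.83. The densest windows were 3L from 21000001 to 22000000 with 72 members, 2R from 20000001 to 21000000 with 67 and 3R from 5000001 to 6000000 with 65. In the replicate lists these had 64.5 ± 3.54, 70.5 ± 3.54 and 68.0 ± 7.07 per Mb, so their order was not settled. Which windows rank highest was not settled either. The window of 3R from 1 to 1000000 had 62 members in the combined list and 70.5 ± 4.95 per Mb in the replicate lists. The emptiest were 3L from 24000001 to 24543557 with 1 member, 3L from 23000001 to 24000000 with 9 and 2R from 1 to 1000000 with 11. None of these 3 held a broad region, whereas the densest held 5 to 12. Across windows the density of members went weakly with that of broad regions (rho 0.27) and of narrow ones (rho 0.16). Windows of one arm are not independent, and wide regions take up the room of others.

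The end of an assembled arm next to the centromere was poor in members on 3 arms and rich on the fourth. In the replicate lists the 2 Mb at the centromere end of 3L had 10.3 ± 0.354 members per Mb, and the rest of the arm had 47.0 ± 1.35 (SD, n = 2). On 2R the values were 22.8 ± 3.18 and 49.3 ± 1.14, and on 2L 28.0 ± 0.707 and 42.8 ± 2.29. The arm 3R went the other way, with 62.3 ± 0.354 in these 2 Mb and 42.4 ± 1.31 elsewhere. Each difference exceeded the spread between replicates. Mappability of these stretches was not computed, nor how far each assembled arm runs into pericentric heterochromatin. On the 3 poor arms the low density lay mostly in the outermost windows of 1 Mb. In the combined list 2R had 11 members from 1 to 1000000 and 43 from 1000001 to 2000000. On 2L there were 46 from 21000001 to 22000000 and 17 from 22000001 to 23000000. On 3L there were 37 from 22000001 to 23000000, 9 from 23000001 to 24000000 and 1 in the shorter last window from 24000001 to 24543557.

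The members that did lie at the centromere end were narrower on every arm, while their scores went different ways. In the combined list they had a median score of 0.68 and a median width of 3418 bp over the 4 arms (257 members, 119 of them on 3R). The rest had 0.71 and 3928 bp. Both replicates supported 92.2% and 91.3% of them. By arm, the median score at this end was below that of the rest on 2R (0.62 and 0.77) and 2L (0.65 and 0.69). It was above it on 3L (0.74 and 0.69, from only 23 members) and level on 3R (0.72 at both). Support at the centromere end of 3L was the lowest of these, at 78.3%. Median widths at this end and in the rest were 2906 and 3928 bp on 2R and 3112 and 3752 bp on 2L. On 3L they were 3423 and 3958 bp, and on 3R 3857 and 4017 bp.

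**Figure D5:**
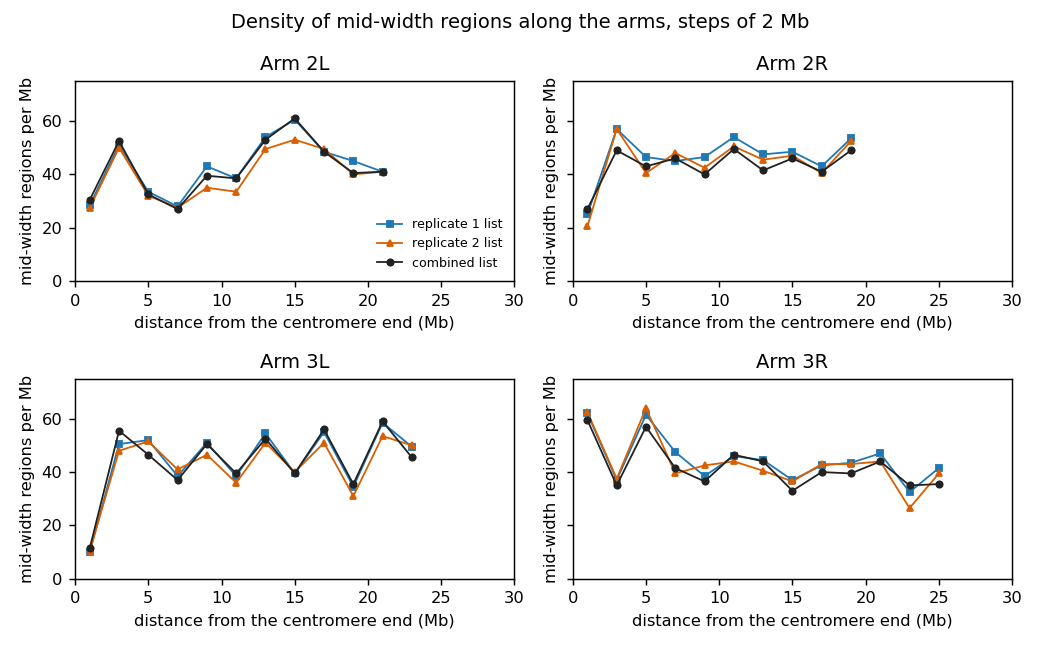
Mid-width regions per Mb (vertical axis) by distance from the centromere end of each assembled arm in Mb, in steps of 2 Mb, for the combined list and each replicate list; a last incomplete step is left out. The first step is the lowest of its arm on 2R and 3L, low on 2L, and among the highest on 3R.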

How the data were processed

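H3K4me1 ChIP-seq region lists from 2 replicate ChIP libraries and a combined list were used. The submitters' processing notes name Bowtie 0.12.7, a short-read aligner, and per the file headers coordinates are FlyBase release 5. The sources used here do not give the region caller, its threshold, its use of the input, how replicates were combined or the depth. Replicate numbers come from the titles. Both replicate lists carry one experiment number, while the labels name different ones for the replicates. Each list was therefore matched to a replicate by the sample it was deposited under. A swap of the lists was not tested.

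The deposited score has no stated scale. Within a list, 2 to the power of score differences was a ratio of whole numbers (denominators up to 20000, relative tolerance 2e-13) for 8215 of 8219, 7601 of 7601 and 7400 of 7401 regions. With base e or base 10 at most 6 passed. The deposited scores are therefore read as log2 with one constant per list. The SD of a median score between replicate lists includes any difference of these constants.

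Members were taken by width. The 1 region listed as depleted was left out. A shared base (1 bp) counted as overlap, gaps count the bases between regions, and a region belongs to the window that holds its midpoint. Shares have exact 95% intervals that cover counting error only. Values of the replicate lists are mean ± SD (n = 2). Combined values are the authors' own. The overlap and spacing steps were tested on 4179 simulated regions, and 100% of planted overlaps and gaps were recovered. Python 3.11.15, numpy 2.4.6 and scipy 1.17.1 were used.

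Regions named in the text are the 10 highest scores, the widest and narrowest 5, those nearest the limits, the 5 largest replicate differences, the 5 strongest in neither list, the 3 most isolated and the 3 densest and emptiest windows. Members, rules and alternatives were chosen with earlier results of these data known. Alternatives changed the width limits, the joining of regions, the score threshold, the list and the overlap rule.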

Additional observations from a re-analysis of the deposited data

Results flagged for a closer look

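The centromere end of 3R went against that of the other arms in both libraries. The density of mid-width regions in the 2 Mb at this end, divided by that of the rest of the arm, was 1.43 in replicate 1 and 1.51 in replicate 2 on 3R. It was 0.642 and 0.668 on 2L, 0.499 and 0.423 on 2R, and 0.209 and 0.228 on 3L. It stands here because both replicates moved one way on 3R and the other way on each of the other arms. The difference between arms was not tested.

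Outside the arms, the combined list had 37 regions of 2 to 10 kb on 7 heterochromatic and unplaced sequences of 19.3 Mb together. Both replicates supported 31 of them, and their density was 1.91 per Mb, against 43.3 per Mb on the autosomal arms. Chromosome 4 had 74 such regions, at 54.7 per Mb, above the arms, with a median score of 0.59 against 0.71 on the arms. Both counts stand here because these sequences lie outside the 4 arms that the rule covers.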

How the results depend on the processing

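No paired analysis was possible because no result comes from a test: input values were not analysed here, and 2 libraries cannot reach p below 0.05. Arms, ends of arms, width steps and gap classes were compared within the same 2 libraries, and each library's own values for them are given. Alternatives gave 72 values, of which 13 stayed within the spread and 57 moved beyond it. The other 2 were values of rho, for which no spread was at hand. A change of direction was defined only for the density ratios of 2R over 2L and of the centromere end to the rest. Among these ratios 0 changed direction. The spread was the SD between both replicate lists, the exact interval for shares found in the lists, and 1.5 times for the count. An SD of 2 lists can be very small, as for the gap (4.24 bp) and the centromere ratio (0.0053). A gap of 1227 bp against 1220 bp thus counted as moved, and the number of moved values does not measure how stable the results are. Restriction to regions found in both lists, and to widths that both replicate lists hold, was chosen after the data were seen.

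With limits of 2200 bp to under 9 kb the members covered 16.8% of the arms and made up 56.8% of the regions. Their median width was 4020 bp, score 0.74, gap 1200 bp, support by both replicates 93.0% and density ratio of the centromere end to the rest 0.710. With 1800 bp to under 11 kb these were 21.4%, 72.3%, 3770 bp, 0.69, 1227 bp, 87.5% and 0.749. Joining regions at most 500 bp apart gave 16.7%, 63.0%, 4149 bp, a gap of 1968 bp and a ratio of 0.767. In the top 50% by score 2433 members remained by the rule, with 13.2%, 75.4%, 4810 bp, 0.92, 2472 bp, 99.9% and 0.687, and the density of 2R over 2L was 1.18 against 1.05. For regions found in both lists the width was 4098 bp, the score 0.75, the gap 1651 bp, 2R over 2L 1.09 and the centromere ratio 0.733.

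In a single replicate list, without the other replicate, the count was 4149 to 4348, coverage 18.2 to 19.3%, width 3691 to 3752.5 bp, score 0.83 to 0.86, gap 1352 to 1358 bp, 2R over 2L 1.11 to 1.15, the centromere ratio 0.679 to 0.686 and the share of regions 71.0 to 72.1%. Support by both replicates was 87.2% under a rule of 50% of a member covered and 82.8% under 50% reciprocal overlap. One-to-one partners were 75.9% and rho for the score 0.89 under both rules. Counting only mid-width neighbours, the gap was 2125 bp. The centromere ratio of 0.726 was 0.734 without 2L, 0.774 without 2R, 0.902 without 3L and 0.503 without 3R. It therefore rested most on 3L and 3R, which went opposite ways.

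Read depth is unknown, so how far it limits weak and short regions could not be computed.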
